A study of Mus musculus with 2 samples.

Results

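The angiopoietins and Tie receptors were followed as 4 genes, the ligand genes Angpt1 and Angpt2 and the receptor genes Tek and Tie1, chosen by name out of 20140 genes in the tables. The glands came from female C57BL6/J mice aged 14 weeks. In the ligated group a metal clip sat on the main ducts of the glands (submandibular and sublingual), and in the mock group the ducts were found but left unclipped; both were taken 14 days after surgery. Each group is 1 droplet single-cell library from 2 glands, from which beads against EpCAM (on epithelial cells) and Ter119 (on red blood cells) and then a dead cell kit had removed cells. Whether the 2 glands came from 1 animal is not given in the sources used here. With 1 library per group there is no replicate spread and no test, and every difference below describes these 2 libraries.

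Angiopoietins are secreted ligands of a receptor tyrosine kinase on endothelial cells that Tek encodes and that is also called TIE2. Angpt1, made mainly by the mural and other mesenchymal cells around vessels, activates this receptor and favours quiet, tight vessels. Angpt2 competes with Angpt1 and can weaken or, depending on context, activate the signal, and it is known from endothelial cells of remodelling vessels. Tie1 encodes a related receptor without a well-established ligand of its own, which pairs with the Tek product and tunes its signal.

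The values are the authors' means over the cells of a cluster, scaled to 10000 UMIs in each cell, a UMI standing for 1 captured RNA molecule. All cells fell in 12 clusters. A smaller set of cells, whose tables carry the names Pdgfr and Gli1 and which is called the subset here, fell in 5. Cell numbers worked out from the means came to 4199 mock and 11406 ligated cells, and the values gave 623 and 2264 UMI totals, with medians of 6572 and 6490. These totals are not 1 per cell: in cluster 10 the ligated library gave 62 totals for 60 cells, and small clusters gave more totals than cells too. Floors and UMI numbers below rest on them and are rough. By their markers, clusters 0 and 4 were endothelial-like, with 11 endothelial markers summing to 175 and 146 UMIs per 10000 in cluster 0 (mock and ligated) and to 126 and 110.2 in cluster 4, against 21.2 and 15.7 in cluster 6. Cluster 4 also had arterial and lymphatic genes such as Sema3g and Ccl21a among its leading genes. Cluster 6 was mural-like (Rgs5, Higd1b and Kcnj8 led it), cluster 3 fibroblast-like, cluster 1 natural killer-like, cluster 2 T cell-like, cluster 5 macrophage-like, cluster 7 ductal-like and cluster 9 Schwann-like. Clusters 8, 10 and 11 held markers of several cell types and stay unnamed; cluster 10 was led by erythroid genes and held endothelial and macrophage markers too. In the subset, cluster 0 was fibroblast-like, with 11 fibroblast markers summing to 364 in the mock and 289 in the ligated library. Subset cluster 2 was mural-like, cluster 3 endothelial-like and cluster 4 a small fibroblast-like cluster, while cluster 1 stays unnamed. Compared were the clusters that held 50 cells or more in both libraries, 9 of all cells and 3 of the subset. All 4 genes stood above 0 in both libraries, although 684 other genes were listed in the mock library only and 3150 in the ligated library only.

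Angpt1 lies on the minus strand of chromosome 15 (GRCm38, GENCODE M21, chr15:42424723-42676977), where an antisense gene, Gm17473, shares 737 exon bases with it on the other strand. Gm17473 itself stood at 0.0142 in the mock and 0.0365 in the ligated cells of mural-like cluster 6. Angpt2 lies on the minus strand of chromosome 8 (chr8:18690263-18741562) within the span of Mcph1, a gene of the plus strand, and the 2 share 0 exon bases. Tek (chr4:94739289-94874976, plus strand) and Tie1 (chr4:118471191-118490061, minus strand) are both on chromosome 4, and no other annotated gene overlaps either. All 4 are protein-coding.

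Angpt1 was highest in mural-like cluster 6, at 0.760 UMIs per 10000 in mock and 0.455 in ligated cells. These means rest on 161 mock and 420 ligated cells, with median totals of 6486 and 4948 UMIs. At those totals the means correspond to about 79.3 and 94.5 UMIs. The ligated level was thus the lower one (log2((ligated + 0.1)/(mock + 0.1)) of -0.63, called the difference from here on). The mural-like cells of the subset gave the same direction, with 0.866 in the mock and 0.598 in the ligated library (difference -0.47). Their median totals were 5579 and 3334.5 UMIs, and the part of depth in these differences was not tested. The subset cells come from the same 2 libraries and are no independent support. The mural markers were lower in the ligated mural-like cells too, 11 of 11 in cluster 6 and 10 of 11 in subset cluster 2. Their sum went from 228 in the mock to 144 in the ligated cells of cluster 6 and from 241 to 163 in subset cluster 2, and their median differences were -0.66 and -0.49, close to those of Angpt1. The 4 platelet and megakaryocyte markers summed to 3.23 in the mock and 0.0227 in the ligated cells of cluster 6, but to 0.0344 and 0.0153 in subset cluster 2. The part of other cells in the Angpt1 difference of cluster 6 was not tested.

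In fibroblast-like cluster 3, by contrast, Angpt1 stood at 0.238 in the mock and 0.300 in the ligated library (difference 0.24). The fibroblast-like cells of the subset gave 0.187 and 0.332 (difference 0.59). Angpt1 was therefore lower in the ligated library in mural-like cells and higher in fibroblast-like cells, in both tables. The 11 fibroblast markers had median differences of -0.70 in cluster 3 and -0.45 in subset cluster 0, and 10 and 11 of them lay below Angpt1. The 11 mural markers summed to 3.94 in the mock and 6.72 in the ligated cells of cluster 3, and to 4.11 and 7.26 in subset cluster 0. The part of mural-like cells in these Angpt1 differences was not tested. The mural-like level was 3.19 times the fibroblast-like level in mock and 1.51 times in ligated cells. The ductal-like cluster 7 followed with 0.154 in the mock and 0.228 in the ligated library, but its cells were shallow (median totals of 1076.5 and 982.5 UMIs) and these means correspond to only about 3.33 and 6.23 UMIs. In the ligated library the level of cluster 7 was not told apart from that of the fibroblast-like cluster, taking neighbours that differ by less than 1.5 times as not told apart. The subset's endothelial-like cluster 3 held Angpt1 at 0.151 in the mock and 0.0670 in the ligated library (difference -0.59). The 11 mural markers summed there to 21.5 and 13.3, against 0.513 and 0.954 in cluster 0 of all cells. The 11 fibroblast markers summed to 27.9 and 71.7, against 8.40 and 4.67 in that cluster 0. Endothelial-like cluster 0 held far less Angpt1, with 0.00689 in mock and 0.00696 in ligated cells, or about 13.6 and 17.4 UMIs. Cluster 4 gave 0.0186 and 0.0146, of which the mock value was below the level that 3 UMIs would give, called the floor.

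Angpt2 was also highest in mural-like cluster 6, at 0.644 in the mock and 0.670 in the ligated library, or about 67.2 and 139.2 UMIs. The values of the 2 libraries lay close together (difference 0.05). In the mural-like subset cells they were 0.633 and 0.806 (difference 0.31). All 11 mural markers had a lower difference than Angpt2 in both clusters. The next cluster, endothelial-like cluster 4, stood far lower, at 0.0473 in the mock and 0.0935 in the ligated library, so the mural-like level was 13.6 and 7.16 times higher. In endothelial-like cluster 0 Angpt2 stood at 0.0400 and 0.0323, and in fibroblast-like cluster 3 at 0.0226 and 0.0787. Fibroblast-like cells thus showed 3.48 times as much Angpt2 in the ligated library, although the mock value corresponds to only about 5.46 UMIs. The subset's fibroblast-like cells gave 0.0235 and 0.0753, again with few mock UMIs (about 4.90). Endothelial-like cluster 4 was 1.98 times higher in the ligated library, from about 6.93 and 30.5 UMIs, and the difference with the pseudocount was 0.39.

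Markers of other cell types stood at a larger share of their library mean in the ligated library, which bears on such low values. The median share was 3.86% in the mock and 11.5% in the ligated cells of cluster 3, 3.73% and 9.28% in cluster 0 and 10.5% and 21.9% in cluster 6. Angpt2 in cluster 3 stood at 42.8% and 143% of its library mean, above those shares in both libraries. However, the share for cluster 3 leaves out fibroblast and mural markers, and Angpt2 was highest in mural-like cells. The mural markers stood in cluster 3 at a median of 12.6% of their library mean in the mock and 46.2% in the ligated library. In cluster 0 Angpt2 stood at 75.6% and 58.6%, above the shares of that cluster. Angpt1 in cluster 0 stood at 12.9% and 11.5% of its library mean, near the ligated share. The part of these shares in the differences of low values was not tested.

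Set against Angpt1 in the same mural-like or fibroblast-like cells, Angpt2 was higher in the ligated library. The ratio of Angpt2 to Angpt1 in mural-like cluster 6 was 0.847 in the mock and 1.47 in the ligated library, and in the mural-like subset cells it was 0.731 and 1.35. In fibroblast-like cluster 3 the ratio was 0.0952 and 0.262. The endothelial-like clusters differed in direction, with 5.81 and 4.65 in cluster 0, 2.54 and 6.40 in cluster 4 and 0.499 and 1.75 in subset cluster 3, all from few Angpt1 UMIs and in cluster 4 from a mock Angpt1 value below the floor. These ratios are compared between the libraries only, since UMI levels of different genes depend on how well each transcript is captured. In the library means, over all cells, the ratio was 0.994 and 0.912, so the direction seen within mural-like and fibroblast-like cells did not appear there.

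**Figure D1:**
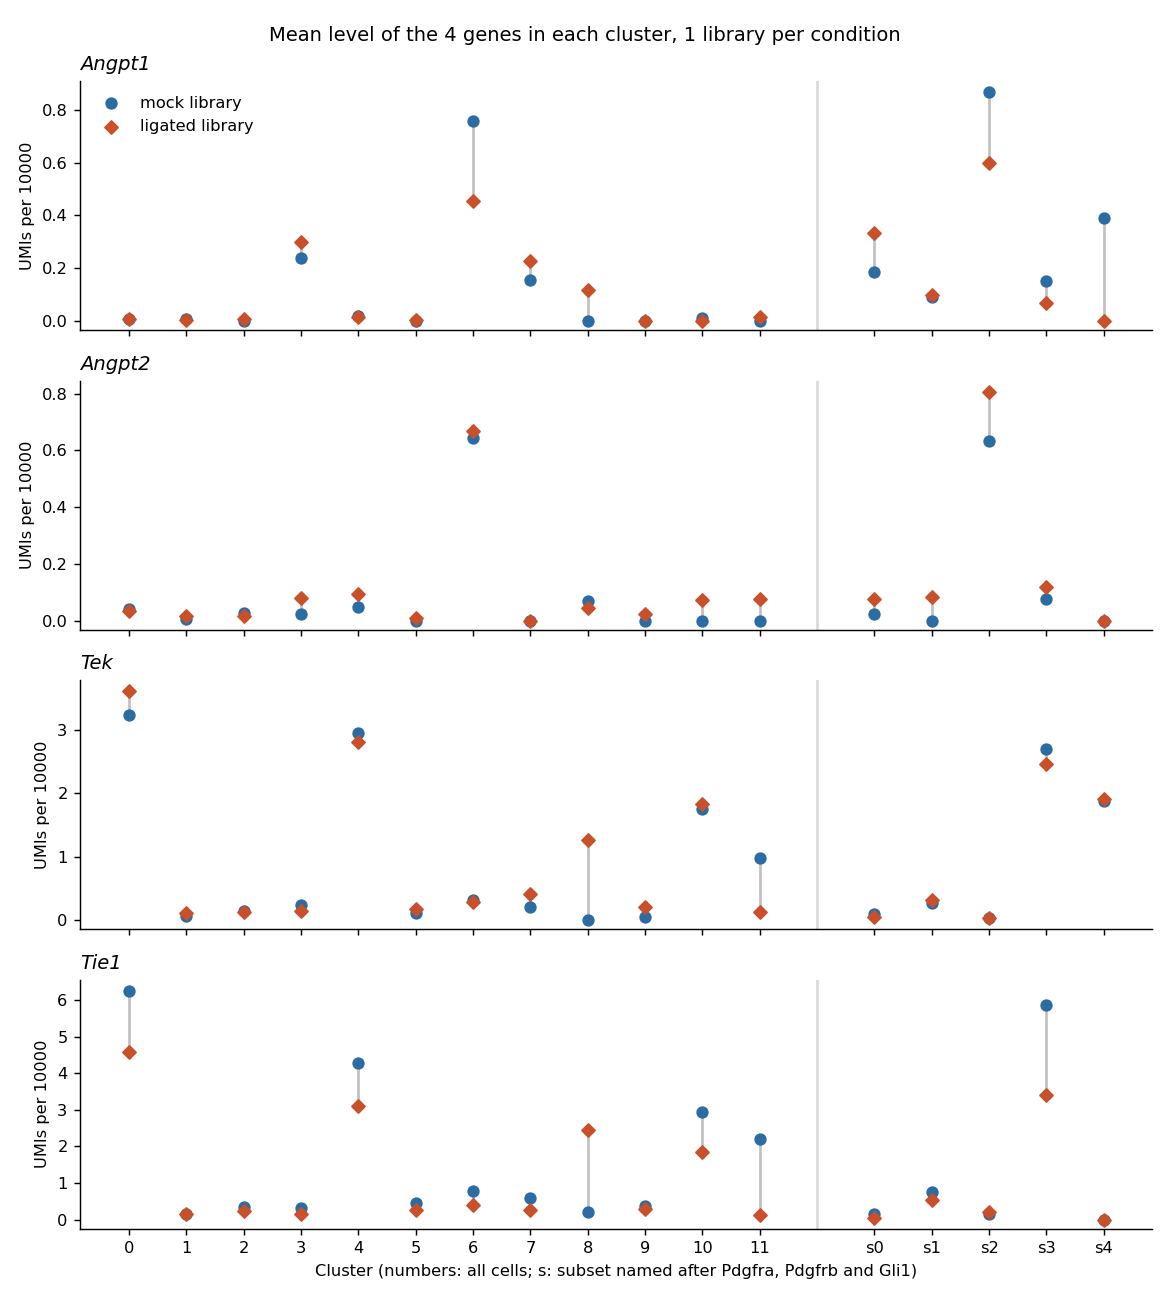
Mean level of Angpt1, Angpt2, Tek and Tie1 (y axes, UMIs per 10000, linear, a separate scale for each gene) in the 12 clusters of all cells and the 5 subset clusters (x axis, subset marked s), with circles for the mock and diamonds for the ligated library and no error bars because each is 1 library. Angpt1 and Angpt2 peak in mural-like clusters 6 and s2, and Tek and Tie1 peak in endothelial-like clusters 0, 4 and s3.

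The clusters that supplied most Angpt1 differed between the libraries. Of the summed Angpt1 expression of the mock library, 54.7% came from mural-like cluster 6 and 20.0% from fibroblast-like cluster 3. In the ligated library the order was turned round, with 27.7% from cluster 6 and 50.0% from cluster 3. Fibroblast-like cells were 4.48% of the mock and 10.1% of the ligated cells, while mural-like cells were 3.83% and 3.68%. For Angpt2, the mural-like cluster supplied 46.6% and 44.7%, endothelial-like cluster 0 supplied 42.5% and 15.1%, and the fibroblast-like cluster supplied 1.91% and 14.4%. The large share of cluster 0 in the mock library comes from its number of cells (56.3% of the library) at a low mean level. Because cells had been depleted with beads, these shares describe the depleted libraries and not the gland.

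**Figure D2:**
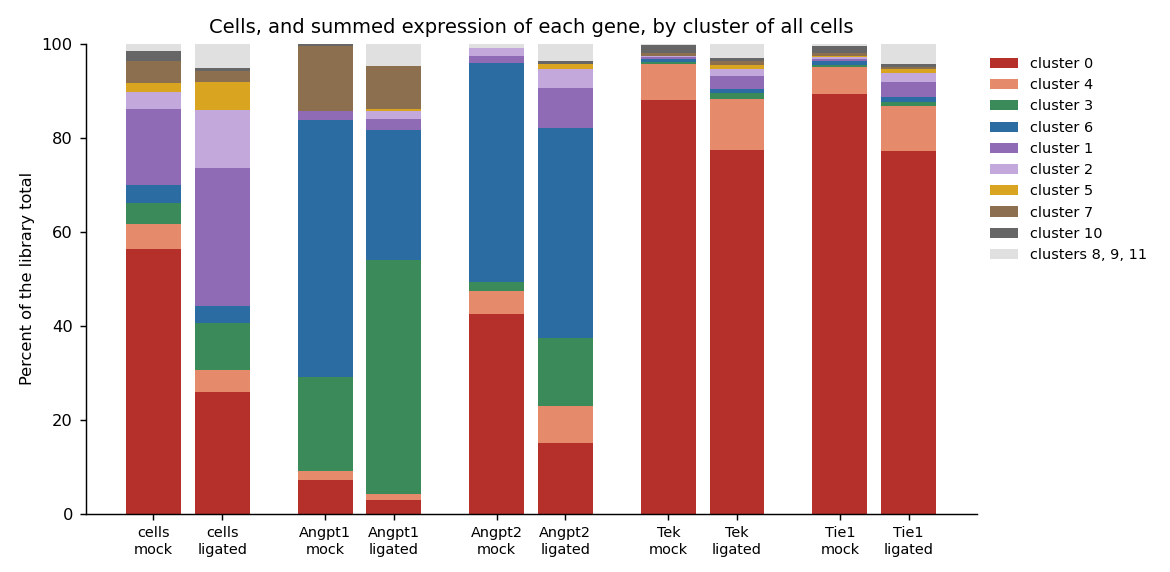
Percent of each library's cells (first pair of bars) and of the summed expression of each gene (other pairs) found in each cluster of all cells, for the mock and ligated libraries. Fibroblast-like cluster 3 holds 20.0% of Angpt1 expression in the mock and 50.0% in the ligated library, and clusters 0 and 4 hold most of Tek and Tie1 in both.

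Tek was highest in endothelial-like cluster 0, at 3.24 in the mock and 3.61 in the ligated library (2363 and 2948 cells). Endothelial-like cluster 4 followed with 2.94 and 2.81, and the levels of clusters 0 and 4 were not told apart in either library. The difference was 0.15 in cluster 0 and -0.07 in cluster 4. In the endothelial-like subset cells Tek stood at 2.70 and 2.47 (difference -0.13), and in cluster 10 at 1.76 and 1.83 (0.05). The sign in cluster 10 turned after subtraction of the library mean profile (-0.06) and after centring on the median over all genes (-0.51). The levels of the 2 libraries differed by 1.11 times in cluster 0 and by less in the other 3.

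Tie1 was also highest in cluster 0, at 6.25 in the mock and 4.57 in the ligated library (difference -0.44). In cluster 4 it stood at 4.27 and 3.10 (-0.45), in the endothelial-like subset cells at 5.86 and 3.42 (-0.76) and in cluster 10 at 2.95 and 1.85 (-0.64). The mock level was the higher one in all 4 of these clusters, by 1.37, 1.38, 1.71 and 1.59 times. Mural-like cluster 6 (0.772 and 0.406, difference -0.79) and ductal-like cluster 7 (0.592 and 0.275, difference -0.89) showed the same direction at far lower levels. Of the 12 compared clusters, Tie1 was lower in the ligated library in 10, the exceptions being natural killer-like cluster 1 (0.141 and 0.166) and mural-like subset cluster 2 (0.145 and 0.210). These clusters are not independent, since all of them come from the same 2 libraries.

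The ratio of Tie1 to Tek in the same cells summarises this. It was 1.93 in the mock and 1.27 in the ligated library in cluster 0, 1.45 and 1.10 in cluster 4, and 2.17 and 1.39 in the endothelial-like subset cells. The ratio was lower in the ligated library in 9 of 9 compared clusters of all cells and in 2 of 3 of the subset. The exception was mural-like subset cluster 2 (4.94 and 5.17), where Tek was at or near the floor. Mock Tek also rested on few UMIs in ductal-like cluster 7 (about 4.54) and macrophage-like cluster 5 (about 9.23). The ratios there were 2.82 and 0.668 in cluster 7 and 3.96 and 1.44 in cluster 5. The library means gave 1.90 and 1.27, almost the values of cluster 0. In clusters 1, 2, 3, 5, 6 and 7, whether the receptor RNA came from those cells or from endothelial cells was not tested. All compared clusters share the same 2 libraries, so these counts are not independent.

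**Figure D3:**
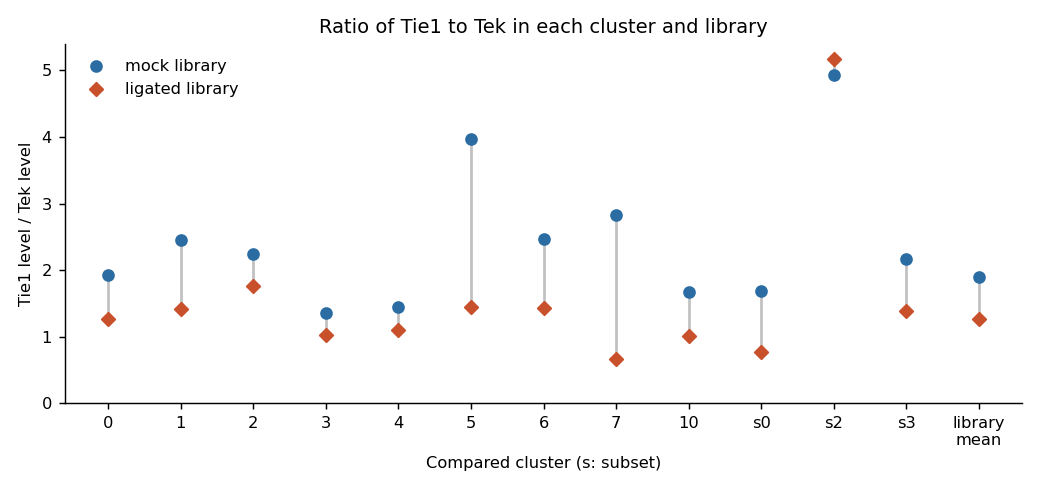
Ratio of the Tie1 level to the Tek level (y axis, no unit, from 0) in each compared cluster and in the library mean (x axis, subset marked s), for the mock (circles) and ligated (diamonds) libraries. The ligated ratio is the lower one in all compared clusters except s2. Few Tek UMIs underlie the ratios of s2 and the mock ratios of clusters 5 and 7.

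Averaged over all cells of a library, both receptors were lower in the ligated library. A mean over a library does not tell fewer endothelial cells from less receptor RNA per cell, so both are given. Tek stood at 2.07 in the mock and 1.20 in the ligated library, and Tie1 at 3.94 and 1.53. Endothelial-like clusters 0 and 4 together held 61.7% of the mock and 30.5% of the ligated cells, and they supplied 95.6% and 88.3% of Tek and 95.2% and 86.7% of Tie1. If the ligated clusters are averaged with the mock library's cell numbers as weights, Tek came to 2.29 and Tie1 to 2.87, or 1.11 and 0.729 times the mock mean. The lower library mean of Tek was thus not present at equal mix, whereas that of Tie1 was smaller but still present. For the ligands the library means were 0.0533 and 0.0605 for Angpt1 and 0.0529 and 0.0552 for Angpt2, and at the mock mix the ligated means were 0.0484 and 0.0581.

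Outside the endothelial-like clusters, Tek and Tie1 were set beside other endothelial genes in the same cells. Over the 6 clusters 1, 2, 3, 5, 6 and 7, Tek stood at 2.78% to 15.1% of its library mean in the mock and at 9.72% to 34.2% in the ligated library. The medians of the 11 endothelial markers there ran from 1.47% to 14.7% and from 8.40% to 28.1%. Tie1 ran from 3.57% to 19.6% and from 9.90% to 26.6%. Tie1 lay within the range of the markers in 6 of 6 clusters in each library, and Tek in 6 of 6 in the ligated and 5 of 6 in the mock library, where in macrophage-like cluster 5 it stood below it. That range was wide, from 12.3% to 108% in the mock cells of cluster 6. Whether levels such as 0.312 and 0.283 for Tek in mural-like cluster 6 come from those cells or from RNA of endothelial cells was not tested, which holds for the Tie1 differences of clusters 6 and 7 too.

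For all genes, a difference was counted where its size was 1 or more and the larger of both values was 0.5 or more (the size rule), and no difference of the 4 genes met it. That makes 0 of 48 pairs of a gene and a compared cluster, of which 14 had a value of at least 0.5. Among all genes with such a value, the rule was met by 6.6% in cluster 0, 4.56% in cluster 1, 5.34% in cluster 2, 9.78% in cluster 3, 6.1% in cluster 4, 8.48% in cluster 5 and 9.41% in cluster 6. It was met by 26.5% in cluster 7 and 25.2% in cluster 10, and in the subset by 10.1% in cluster 0, 8.51% in cluster 2 and 10.5% in cluster 3. Since these shares are small except in clusters 7 and 10, a count of 0 among 4 genes is not far from them. Within the distribution of all genes, 8.89% of 3849 genes had a lower difference than Tie1 in cluster 0. That share was 13.0% for cluster 4 and 7.56% for the endothelial-like subset cells. For Tek in cluster 0, 68.5% had a lower one. For Angpt1 in mural-like cluster 6, 13.0% of 4069 genes had a lower one, and for Angpt2 there 60.5%. The median difference over all genes was within 0.1 of 0 in every compared cluster except cluster 10, where it was 0.56. There 4.38% of genes lay below Tie1 and 18.8% below Tek.

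**Figure D4:**
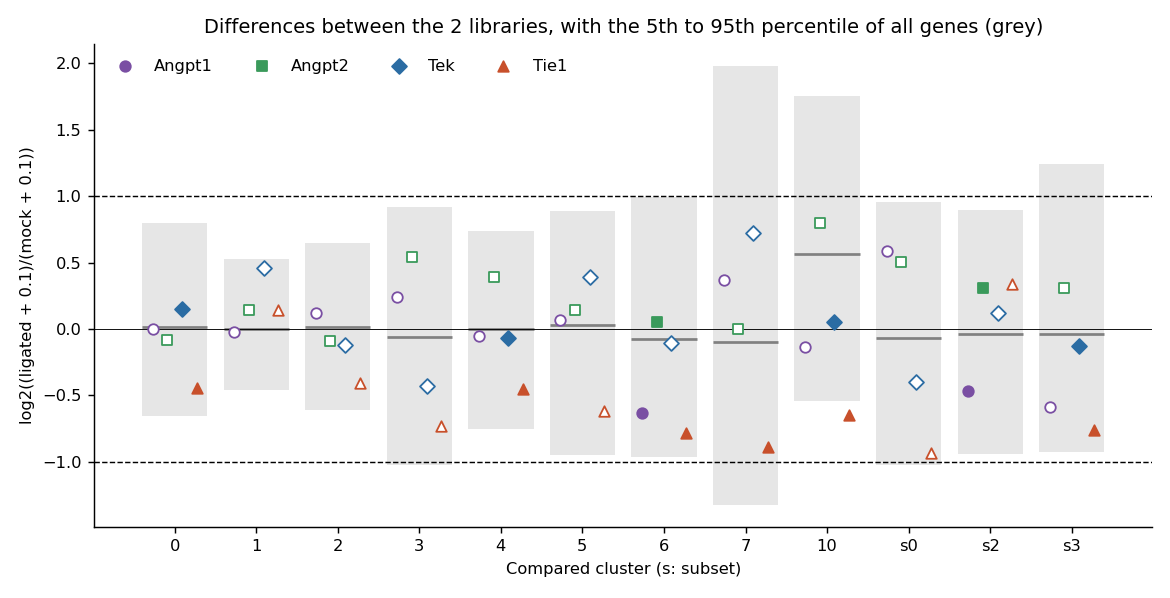
Difference log2((ligated + 0.1)/(mock + 0.1)) of each gene (y axis) in the 12 compared clusters (x axis, subset marked s), filled where the larger value is 0.5 or more, over the 5th to 95th percentile of all genes (grey) with their median (grey line) and the size of 1 (dashed). No symbol lies beyond the dashed lines, and Tie1 lies below 0 in 10 of the 12 clusters.

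Other endothelial genes were set beside the receptors in the same cells. In cluster 0, 4 of 11 endothelial markers had a lower difference than Tie1 and 7 a higher one, and the markers' median difference was 0.08. The 4 lower ones were Kdr, the main receptor of vascular endothelial growth factor (31.2 in the mock and 16.8 in the ligated library), its relative Flt1 (47.2 and 32.3), Eng, a co-receptor for TGF-beta family ligands (13.9 and 9.07), and Emcn, a sialomucin of capillaries and veins (23.4 and 17.1), whose difference of -0.45 was all but that of Tie1. Tek had 7 markers below and 4 above it, and the junction gene Cdh5 stood at 9.02 and 9.15. In cluster 4, 3 markers lay below Tie1 and 6 below Tek, and in the endothelial-like subset cells 4 and 6. Cldn5, a junction gene, and Vwf, a clotting factor gene, had the lowest levels among the markers in cluster 0, and Cldn5 the largest difference there (0.0346 and 0.478, difference 2.10).

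**Figure D5:**
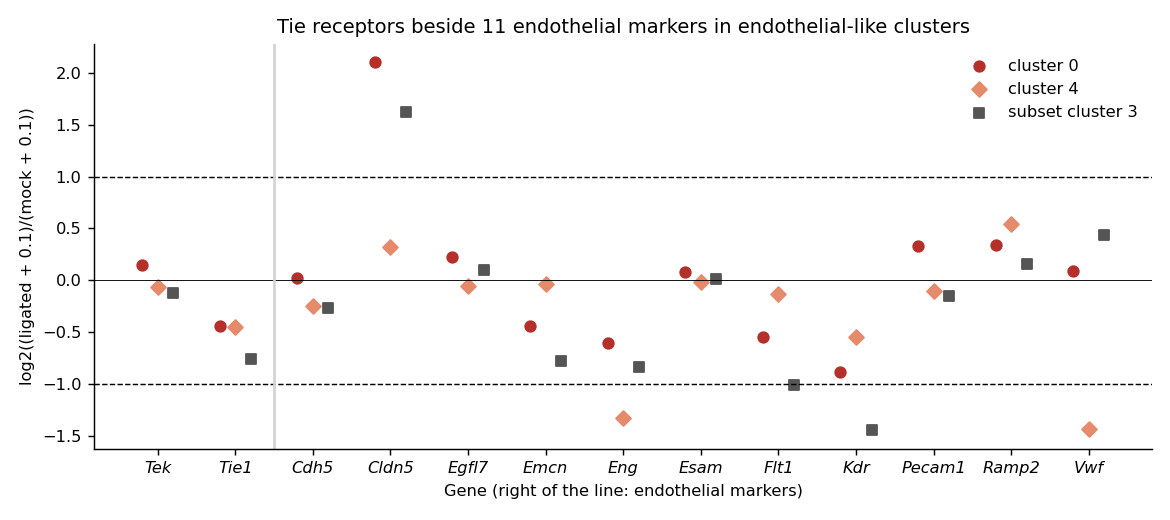
Difference log2((ligated + 0.1)/(mock + 0.1)) (y axis) of Tek, Tie1 and 11 endothelial markers (x axis) in endothelial-like clusters 0 and 4 and subset cluster 3, with dashed lines at a size of 1. Tek lies near 0 in all 3 clusters, whereas Tie1 lies between -0.44 and -0.76, with Kdr and Eng below it in each cluster.

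Of 8 receptor partners and sheddases, 6 had a value of at least 0.5 in cluster 0 and 0 of them met the size rule, against 6.6% of all genes there. Ptprb encodes the endothelial phosphatase that removes phosphate from the Tek product, and it stood at 17.8 in the mock and 18.5 in the ligated library in cluster 0 and at 25.2 and 19.7 in cluster 4. In cluster 4, Adam17, a protease that sheds surface proteins, was lower in the ligated library (1.00 and 0.367, difference -1.24). There 1 of 6 met the rule, against 6.1% of all genes. In mural-like cluster 6, 1 of 5 met the rule, the integrin gene Itgb1 (14.2 and 6.11, difference -1.20), against 9.41% of all genes there. Svep1, an extracellular matrix protein known to bind the Tie1 product, was highest in fibroblast-like cluster 3, at 2.14 in the mock and 3.66 in the ligated library (difference 0.75). It met the rule in the endothelial-like subset cells (0.157 and 0.852, difference 1.89), as 1 of 8 list genes there, against 10.5% of all genes. In those cells the 11 fibroblast markers summed to 27.9 in the mock and 71.7 in the ligated library. The part of fibroblast-like cells in the Svep1 value was not tested.

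Of 13 genes of intracellular Tie signalling, 7 had a value of at least 0.5 in cluster 0, 7 in cluster 4 and 8 in cluster 6. The size rule was met by 0 of them in these clusters, against 6.6%, 6.1% and 9.41% of all genes. A count of 0 among so few genes is not far from those shares. Their median difference was -0.16 in cluster 0, -0.30 in cluster 4 and -0.25 in cluster 6, against 0.01, -0.003 and -0.07 over all genes. Akt1, a kinase downstream of the receptor, stood at 1.08 and 0.869 in cluster 0. Pik3r1, a regulatory subunit of the lipid kinase that the receptor recruits, stood at 0.573 and 0.821.

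Transcription factors known for endothelial genes included 2 of 9 past the size rule in cluster 0, both higher in the ligated library. These were the ETS family genes Erg (0.488 in the mock and 1.58 in the ligated library, difference 1.52) and Ets2 (1.64 and 3.84, difference 1.18). Of all genes with a value of at least 0.5 in cluster 0, 6.6% met the rule. The median difference of the 9 genes was 0.12, against 0.01 over all genes. Erg also met the rule in cluster 4 (0.501 and 1.25) and in the endothelial-like subset cells (0.497 and 1.28). In cluster 10, Erg (0.322 and 0.979) and Ets2 (0.621 and 1.34) met it, against 25.2% of all genes there. Foxo1, a factor that the Tek signal keeps out of the nucleus and that activates Angpt2, stood at 1.18 and 1.29 in cluster 0. Klf2, a gene induced by blood flow, was the most abundant, with 10.3 and 8.05 in cluster 0. Cluster 4 gave 18.7 and 15.3 for it. Lower by the size rule was Klf4, a related factor, in fibroblast-like cluster 3 (1.93 and 0.647, difference -1.45) and in the fibroblast-like subset cells (1.45 and 0.396, difference -1.65). Klf2 was lower by the rule in T cell-like cluster 2 (3.54 and 1.61, difference -1.09).

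Of the 5 lists, the tip cell and Foxo1-linked genes had the most members past the size rule in cluster 0. The lists were chosen with earlier results of these data known, so this order is no independent result. Of the 9 tip cell and Foxo1-linked genes, 5 had a value of at least 0.5 in cluster 0. By the size rule, 1 of these was higher and 3 lower in the ligated library, against 6.6% of all genes past it in either direction. Their median difference was -1.21, against 0.01 over all genes. Lower were Esm1, a secreted proteoglycan of sprouting tip cells (1.98 and 0.80, difference -1.21), Pdgfb, the ligand that recruits mural cells (8.23 and 3.31, -1.29), and Cited2, a transcriptional co-regulator (1.94 and 0.70, -1.35). Higher was Dll4, a Notch ligand (0.308 and 0.827, 1.18). The endothelial-like subset cells, which come from the same libraries, gave the same 4 genes in the same directions, with Esm1 at 2.07 and 0.80, Pdgfb at 8.01 and 2.49, Cited2 at 2.44 and 0.509 and Dll4 at 0.285 and 0.756. In cluster 4, Esm1 alone met the rule (1.36 and 0.380). Plvap, which forms the diaphragms of capillary pores, was the most abundant, at 38.7 and 31.8 in cluster 0.

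Of the 6 angiopoietin relatives, 0 had a value of at least 0.5 in clusters 0 and 4. Angptl1, which encodes a secreted protein of similar build, stood in fibroblast-like cluster 3 at 1.14 in the mock and 0.0564 in the ligated library (difference -2.99), and in the fibroblast-like subset cells at 1.16 and 0.0648. Angptl2, another such gene, was highest in mural-like cluster 6 and lower there in the ligated library (3.37 and 1.44, difference -1.17). The mural-like subset cells gave 4.07 and 1.91 for it (-1.05). In fibroblast-like cluster 3 it stood at 1.11 and 0.622, which did not meet the rule.

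The genes whose levels ran most like those of each member were found over 18 values, from 9 compared clusters in 2 libraries, by Pearson's r of log2(value + 0.1) among 6730 genes. These are descriptions over points that share 2 libraries and their depth. The levels given below are among the values used to choose the genes, so a shared peak or direction is no separate support. For Tek they were Ly6c1, Afap1l1, Grrp1, Sox18 and Shroom4 (r of 0.986 to 0.982). Ly6c1, for example, stood at 38.4 and 34.3 in cluster 0, against 3.61 and 3.61 in mural-like cluster 6. For Tie1 they were Mcf2l, Thrsp, Podxl, Cyyr1 and Kdr (0.986 to 0.983). These 5 were, like Tie1, lower in the ligated cells of cluster 0, with Mcf2l at 3.87 and 2.35, Thrsp at 11.5 and 4.79, Podxl at 14.8 and 7.85 and Cyyr1 at 10.6 and 7.27. For Angpt2 they were Sgip1, Gucy1a1, Art3, Dgkb and Chst1 (0.976 to 0.952). All 5 were highest in mural-like cluster 6 among clusters 0, 3 and 6, such as Gucy1a1, a subunit of the nitric oxide receptor, at 9.84 and 9.53. For Angpt1 they were Cryab, Plce1, Ift81, Tbx2 and Ndrg2 (0.969 to 0.956), present in the mural-like, fibroblast-like and ductal-like clusters. Tbx2 stood at 2.69 and 1.79 in cluster 6, against 0.435 and 0.422 in cluster 3. In ductal-like cluster 7, Cryab (1.07 and 1.42) and Ndrg2 (1.63 and 1.84) stood above their levels in cluster 3 (0.705 and 1.24, 0.904 and 1.09). Plce1, Ift81 and Tbx2 stood lower in cluster 7 than in cluster 3. Tek and Tie1 had an r of 0.962 with each other, and Angpt1 and Angpt2 one of 0.687.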

How the data were processed

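The authors deposited 4 tables of cluster means, 2 with both libraries together and 2 split by condition. Per the submitters' processing notes, Cell Ranger 6.0.1, Seurat and the mouse build mm10 were used; which annotation was used and how cells were filtered and clustered is not given in the sources used here. The deposited values are linear means of a gene's UMIs per 10000 UMIs of a cell, a reading that rests on the values, since every column sums to 10000. They are not counts, so no count model was fitted and no replicate error exists. In the tables split by condition, dates stood in place of 21 gene symbols; the gene order gave them back. Of the value columns, 0 were left without a library.

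Cell numbers were recovered with Python 3.11.15 and numpy 2.4.6 from the weight that makes each joint mean out of the split means (largest residual 9.2e-08), as the largest denominator at which values of genes seen once gave whole UMI totals. Totals that at least 2 genes gave were kept; a gene with 2 UMIs in 1 cell gives a value below that cell's total, so totals can outnumber cells. The floor is the level that 3 UMIs give at the median total. "About n UMIs" is the mean times the cells times that total, a rough figure with no interval. The recovery of cell numbers and the size rule were tested on simulated data. These were made from the profile of cluster 0 alone, with more cells than the smallest clusters hold. The UMI totals, the floor and the UMI numbers were not tested in this way. Cluster names come from fixed marker lists and doublets were not called here.

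The 4 genes, the lists and the rules were chosen with earlier results of these data known. Genes are named where they are members, list genes past the size rule in an endothelial-like or mural-like compared cluster or highest in a list, the 5 likest genes of a member, or markers; other list genes were named for their role after their values were seen.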

Additional observations from a re-analysis of the deposited data

Results flagged for a closer look

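Angpt1 moved in opposite directions in mural-like and fibroblast-like cells of the same pair of libraries. Its difference in mural-like cluster 6 minus that in fibroblast-like cluster 3 was -0.88 on the log2 scale, and in the subset the same contrast (cluster 2 minus cluster 0) was -1.06. This was singled out because the only pair of libraries went one way in one cell type and the other way in the other. In cluster 6 the mural markers summed to 228 in the mock and 144 in the ligated cells, 0.631 times, and Angpt1 to 0.599 times; in subset cluster 2 these were 0.677 and 0.691 times. The platelet and megakaryocyte markers of cluster 6 summed to 3.23 and 0.0227, and their part was not tested. On the fibroblast-like side, the mural markers summed to 3.94 and 6.72 in cluster 3 and to 4.11 and 7.26 in subset cluster 0. The part of mural-like cells there was not tested either. The contrast was not tested, neither difference met the size rule on its own, and both tables hold many of the same cells.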

How the results depend on the processing

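The size rule was met by 0 of 48 pairs in the reported setting, with a pseudocount of 1, after subtraction of the mean profile, without a minimum value, with a minimum value of 2 and with a minimum difference of 2. It was met by 1 pair with a pseudocount of 0.01 (Tie1 in cluster 7, difference -1.08), by 1 after centring on the median (Tie1 in cluster 10, -1.21, where the centring takes away the shift over all genes) and by 4 with all clusters (Tek and Tie1 in clusters 8 and 11, which hold few mock cells). Of the 14 differences with a value of at least 0.5, all kept their sign with either pseudocount and 13 did after subtraction and after centring; the other was Tek in cluster 10 (-0.06 and -0.51). The subtraction moved Tie1 to -1.43 in cluster 6 and -2.02 in cluster 7, where the values left were too low for the rule. The likest genes depended on the measure, least so for Tie1 with a pseudocount of 1. By rank correlation 0 of 5 were shared for Angpt1, Angpt2 and Tek and 2 for Tie1, with a pseudocount of 1 they were 3, 2, 1 and 4 for Angpt1, Angpt2, Tek and Tie1, and from the means over both libraries together there were 1, 2, 1 and 0 for Angpt1, Angpt2, Tek and Tie1; the cause was not tested. The top cluster of each gene was the same in each library and in the joint table. No paired analysis was possible because each group is 1 library and no test was run. Leaving out a replicate was not possible for the same reason.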

Other observations

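Clusters with fewer than 50 cells in a library were left out of the comparisons, and their values follow. In the small fibroblast-like subset cluster 4, led by adventitial genes such as Pi16 and Dpp4, Tek stood at 1.89 in the 10 mock cells and 1.91 in the 17 ligated cells, while Tie1 was listed at 0 in both. The Tek means correspond to about 15.6 and 34.6 UMIs. Of the 11 endothelial markers, Cdh5, Cldn5 and Vwf were listed at 0 in both libraries there, and the highest was Ramp2 at 3.44 and 1.98. The 3 UMIs taken as the floor would give 0.362 in the mock and 0.166 in the ligated cells. Nowhere else among the 17 clusters did Tie1 stand at 0 in both libraries. Angpt1 stood at 0.390 in the mock cells of this cluster, from about 3.24 UMIs, and was listed at 0 in the ligated cells.

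In unnamed cluster 8, Tek was listed at 0 in 25 mock cells and stood at 1.26 in 264 ligated cells, and Tie1 stood at 0.203 and 2.45. The 11 endothelial markers there stood at a median of 2.54% of their library mean in the mock and 83.3% in the ligated library, so these cells differed in their makeup between the libraries. In unnamed cluster 11, Tek stood at 0.986 in 22 mock and 0.127 in 59 ligated cells, and Tie1 at 2.22 and 0.114, beside endothelial medians of 67.2% and 17.7%. In unnamed subset cluster 1, with 14 mock and 435 ligated cells, Angpt1 stood at 0.0894 and 0.0988. In Schwann-like cluster 9, Angpt1 was listed at 0 in 17 mock and 271 ligated cells.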
